A study of Mus musculus with 24 samples.

Results

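Krt7, Krt8, Krt18, Krt19 and Krt20 are 5 keratin genes of simple epithelia, chosen by name from 54 keratin genes and 53465 genes in all. Their RNA was measured in 24 mouse bladder tumors, 3 from each of 8 BURP tumor lines. Each line began as 1 bladder tumor of a C57BL/6NTac mouse that drank 0.1% N-butyl-N-(4-hydroxybutyl)-nitrosamine (BBN) from 8 weeks of age for at most 36 weeks. Pieces were then passed under the skin of wild-type hosts of the same strain and sex, and all tumors of a line descend from 1 donor. The basal/squamous (Ba/Sq) lines are BURP-12BaSq, BURP-17BaSq and BURP-18BaSq with male donors and BURP-21BaSq, BURP-24BaSq, BURP-25BaSq with female donors, BURP-16SR (male) is the stroma-rich line and BURP-19NE (male) the neuroendocrine-like line. Whether the host of a sequenced tumor had received a drug is not given in the sources used here. The paper gave the subtypes with a consensus classifier applied to RNA of these lines, so contrasts of subtype genes are not independent of the labels. It also described the pathology of the lines and stained differentiation markers. CK5 was found in the Ba/Sq lines, and synaptophysin was high in BURP-19NE and BURP-16SR. In the paper, 1 of 3 BURP-16SR replicates matched the NE-like class rather than stroma-rich. Each library is bulk RNA of tumor and host cells, so fewer cells of a type and less RNA per cell cannot be told apart, and the SR and NE labels each rest on 1 line.

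The libraries held between 9295708 and 25370320 estimated counts (median 17693100). Over all tested genes, centred on each gene's mean, 22 of the 24 tumors correlated best with the other tumors of their own line. C102-M1, labelled BURP-25BaSq, had a mean r of 0.00 with its own line and 0.62 with BURP-21BaSq, and the main results that rest on it are given with and without it. Over the other 2 tumors, the BURP-25BaSq means were 588 CPM of Krt7, 141 of Krt8, 107 of Krt18, 339 of Krt19 and 89.3 of Krt20. C165-M30 of BURP-17BaSq lay as near to BURP-24BaSq (mean r 0.26) as to its own line (0.26). In C102-M30 of BURP-25BaSq, 61.9% of all counts fell on the ribosomal RNA gene CT010467.1, against at most 1.85% elsewhere. Levels are given as CPM, the counts per 1000000 of a library total scaled by TMM (trimmed mean of M values), and 3 counts stood for 1.18 CPM in that tumor and for 0.106 to 0.412 CPM elsewhere.

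Keratins are the intermediate filament proteins of epithelial cells. A filament is built from pairs of a type I with a type II chain, and a chain without a partner is normally unstable. Krt8 and Krt7 are type II, and Krt18, Krt19 and Krt20 are type I. Krt8 and Krt18 are the first pair of the embryo and the main pair of simple epithelia, Krt7 and Krt19 accompany them in ducts and in urothelium, and Krt20 marks umbrella cells, the surface layer of the bladder. The stratified and squamous counterparts are Krt5 and Krt14 in basal cells and Krt1, Krt10, Krt4 and Krt13 above them.

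In GRCm38, Krt8 (ENSMUSG00000049382.9, chr15:101996698-102004482, minus strand) and Krt18 (ENSMUSG00000023043.6, chr15:102028180-102032027, plus strand) lie back to back, with 23698 bases between their starts. Krt18 is the one type I keratin gene of the group that lies in the type II cluster on chromosome 15, which also holds Krt7 (ENSMUSG00000023039.16, chr15:101411043-101430313, plus strand). Krt19 (ENSMUSG00000020911.14, chr11:100140810-100148665, minus strand) and Krt20 (ENSMUSG00000035775.2, chr11:99428403-99438150, minus strand) lie in the type I cluster on chromosome 11. The 250 bases before the RefSeq start (GRCm38.p6) are given for Krt8 and Krt18, because the pair stands side by side in the genome and parts in the tumors, and for Krt7, the other type II member. The RefSeq starts differ from the starts of the gene spans above. The Krt7 window lies inside its span, and the windows of Krt8 and Krt18 overlap theirs in part. Capitals mark the matches to the letters CACCC (bound by Krüppel-like factors), GGGCGG (the GC box), TATAAA (the TATA box), CCAAT (the CCAAT box), TGANTCA (AP-1) or AACCNGTT (Grainyhead-like factors), searched on both strands.
Krt8, chr15:102004343-102004592, minus strand: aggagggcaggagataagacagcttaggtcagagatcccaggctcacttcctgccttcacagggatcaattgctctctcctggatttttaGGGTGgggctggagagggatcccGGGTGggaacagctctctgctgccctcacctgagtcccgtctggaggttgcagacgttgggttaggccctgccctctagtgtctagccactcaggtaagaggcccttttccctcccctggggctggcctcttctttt
Krt18, chr15:102027966-102028215, plus strand: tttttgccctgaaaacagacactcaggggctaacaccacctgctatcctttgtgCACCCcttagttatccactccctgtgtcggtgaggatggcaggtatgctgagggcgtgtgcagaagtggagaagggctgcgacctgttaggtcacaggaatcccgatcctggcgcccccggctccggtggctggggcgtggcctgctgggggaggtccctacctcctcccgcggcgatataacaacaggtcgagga
Krt7, chr15:101412153-101412402, plus strand: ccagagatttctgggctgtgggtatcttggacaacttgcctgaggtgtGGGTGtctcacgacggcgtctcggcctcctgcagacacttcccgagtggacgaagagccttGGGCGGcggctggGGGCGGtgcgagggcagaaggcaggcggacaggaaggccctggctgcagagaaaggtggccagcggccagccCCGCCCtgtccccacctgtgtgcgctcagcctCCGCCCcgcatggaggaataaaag
The Krt8 window held 2 CACCC matches, 3 CpG pairs and 58.0% G or C, and the Krt18 window held 1 CACCC match, 12 CpG pairs and 60.4%. The Krt7 window held 4 GC boxes, 1 CACCC match, 16 CpG pairs and 66.0%. The Krt20 window (chr11:99438154-99438403, minus strand) had the one TATAAA of the windows examined, 29 bases before the start, 2 CACCC matches, 5 CpG pairs and 48.0% G or C. No window was available for Krt19, and none of the 4 held the CCAAT box, the AP-1 letters or the Grainyhead-like letters. Over 32851 windows of this length, 52.0% held CACCC, 32.7% GGGCGG, 12.4% TATAAA, 33.9% CCAAT, 6.75% TGANTCA and 1.79% AACCNGTT, with a median of 6 CpG pairs and 52.4% G or C. These matches are descriptions of letters and carry no statement about binding.

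All 5 genes differed among the 8 lines (edgeR quasi-likelihood F test, adjusted p between 3.07e-07 for Krt8 and 0.00229 for Krt7), as did 76.7% of the 21383 genes tested. Among the 6 Ba/Sq lines alone, all 5 differed as well (adjusted p between 1.45e-05 and 0.00359), beside 52.3% of all genes. The ratio of the highest to the lowest line mean was 1350 for Krt8, 586 for Krt20, 65.7 for Krt18, 55.2 for Krt19 and 53.1 for Krt7. Line levels below are the mean ± SD of 3 tumors.

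**Figure D1:**
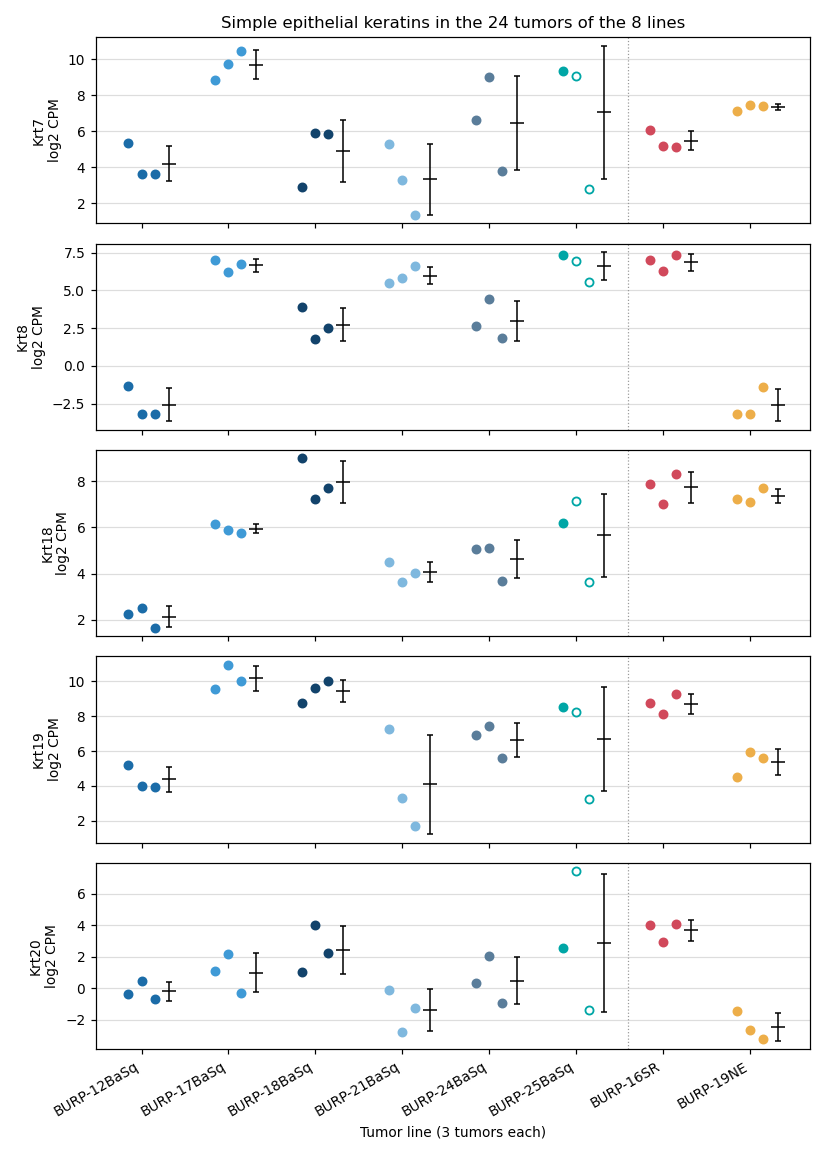
Level of each keratin in each tumor, as log2 CPM, by line. Each point is 1 tumor, black bars are the line mean ± SD (n = 3), and open points are C102-M1 and C102-M30 of BURP-25BaSq. Krt8 lies near the bottom of its scale in BURP-12BaSq and BURP-19NE, while Krt18 is lowest in BURP-12BaSq and is among the higher levels in BURP-19NE.

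Krt8, the type II partner of the founding pair, was almost missing from BURP-12BaSq and BURP-19NE. In BURP-12BaSq it was 0.292, 0 and 0 CPM in C41-M3, C47-M30 and C47-M3, that is 7, 0 and 0 counts. In BURP-19NE it was 0, 0 and 0.272 CPM in C80-M1, C80-M3 and C80-M30, that is 0, 0 and 6 counts. A count of 0 in those 4 tumors allows up to 0.111 to 0.158 CPM (3 counts, counting error only). In BURP-18BaSq Krt8 was 15, 3.26 and 5.50 CPM, and in BURP-24BaSq it was 6.01, 21.6 and 3.55 CPM. These 2 lines overlapped each other and stood between the near-empty lines and the rest. In BURP-21BaSq the tumors had 44.6, 56.5 and 95.9 CPM, in BURP-17BaSq 127, 73.4 and 107 CPM, in BURP-25BaSq 159, 123 and 47.5 CPM (the last being C102-M1), and in BURP-16SR 128, 75.9 and 164 CPM. The 4 high lines overlapped one another.

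The order of the line means for Krt8 was thus BURP-16SR (122 ± 44.1 CPM), BURP-25BaSq (109.9 ± 57.1), BURP-17BaSq (103 ± 27.2), BURP-21BaSq (65.7 ± 26.9), BURP-24BaSq (10.4 ± 9.76), BURP-18BaSq (7.91 ± 6.21), BURP-12BaSq (0.0972 ± 0.168) and BURP-19NE (0.0907 ± 0.157). A difference was called where the adjusted p of edgeR was under 0.05 over all genes and the change was more than 1 on the log2 scale. Between neighbours in this order, 2 of 7 steps were called. BURP-18BaSq exceeded BURP-12BaSq by 6.25 ± 1.06 on the log2 scale (SE, adjusted p = 0.00038 by edgeR), where 10.3% of all genes were called higher. BURP-21BaSq exceeded BURP-24BaSq by 2.67 ± 0.73 (adjusted p = 0.0252 by edgeR), where 3.03% of all genes were called higher. The second step was lost when the form of the tumor label (a C and M code, or a P code) was a covariate. All BURP-21BaSq tumors have the P form, so the effect of this covariate comes from lines that hold both forms. A processed copy, Krt8-ps, is 98.6% identical over 941 bases, so reads may be divided between gene and copy, but the copy was also at 0 in all tumors of BURP-12BaSq and BURP-19NE and reached at most 9.45 CPM, in C102-M30.

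Krt18, the type I partner of Krt8, did not follow it. In BURP-19NE, where Krt8 was near 0, Krt18 was 151, 139 and 211 CPM. In BURP-18BaSq, where Krt8 was low, it was 509.7, 149.8 and 211 CPM. The line with little of both was BURP-12BaSq, with 4.66, 5.56 and 3.03 CPM of Krt18. BURP-16SR had 238, 129 and 320.1 CPM, BURP-25BaSq 73, 141 and 12.4 CPM, and BURP-17BaSq 71.7, 59.5 and 54.7 CPM. BURP-24BaSq had 33.3, 34.9 and 12.6 CPM and BURP-21BaSq 22.8, 12.3 and 16.4 CPM. The tumors of BURP-12BaSq lay below those of every other line.

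The Krt18 line means ran from BURP-18BaSq (290.1 ± 193 CPM) through BURP-16SR (229 ± 95.8), BURP-19NE (167 ± 38.3), BURP-25BaSq (75.3 ± 64.1), BURP-17BaSq (62.0 ± 8.74), BURP-24BaSq (26.9 ± 12.5) and BURP-21BaSq (17.2 ± 5.30) to BURP-12BaSq (4.42 ± 1.28). None of the 7 steps was called. The closest was BURP-21BaSq over BURP-12BaSq (1.95 ± 0.64 on the log2 scale, adjusted p = 0.0559 by edgeR). Pseudogenes resembling Krt18 took at most 0.0907 CPM (Gm5200) and 0 CPM (Gm17847).

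Per length of transcript, the ratio of Krt8 to Krt18 was 0 to 0.000948 in the BURP-19NE tumors and 0 to 0.0459 in BURP-12BaSq. It was 0.0160 to 0.0215 in BURP-18BaSq and 0.133 to 0.453 in BURP-24BaSq. In BURP-16SR it kept to 0.375 to 0.431, whereas Krt8 was near or above Krt18 in BURP-17BaSq (0.905 to 1.44), BURP-25BaSq (0.641 to 2.82) and BURP-21BaSq (1.43 to 4.30). The highest ratio of BURP-25BaSq was that of C102-M1, and its other tumors had 0.641 and 1.60. The pair thus spanned ratios from no measured Krt8 to a several-fold excess of Krt8.

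**Figure D2:**
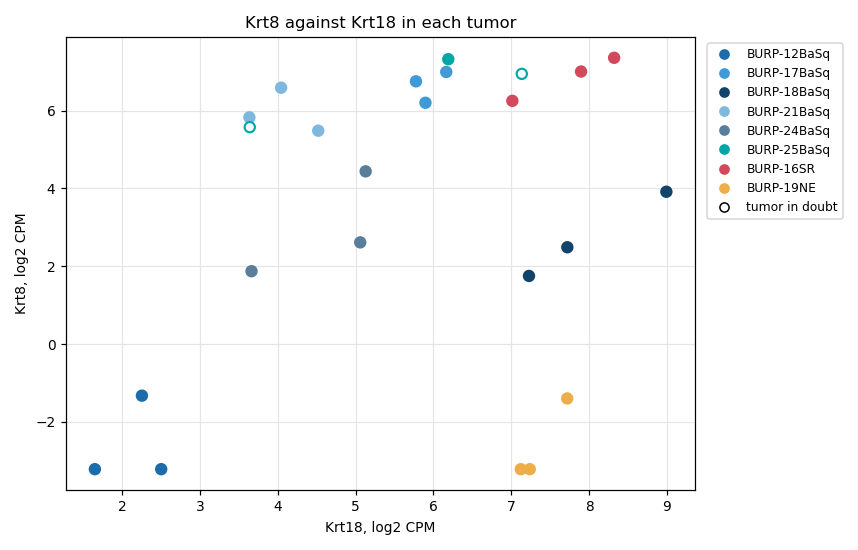
Krt8 against Krt18 in the 24 tumors, both as log2 CPM, with lines by color and the 2 doubtful BURP-25BaSq tumors open. The 3 BURP-19NE tumors combine a Krt18 level of 139 to 211 CPM with Krt8 at 0 to 0.272 CPM, and BURP-12BaSq lies low on both axes.

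Krt7, the second type II member, was highest in BURP-17BaSq, with 463, 861 and 1427 CPM. BURP-19NE had 141, 177 and 169 CPM, the smallest ratio of highest to lowest tumor for Krt7 in any line (1.25) when all 3 tumors of each line are taken. Here Krt7 was at a middle level while Krt8 was near 0, so nearly all the simple type II RNA of BURP-19NE was Krt7. BURP-16SR had 67.3, 36.3 and 35.1 CPM, BURP-18BaSq 7.41, 59.4 and 58.1 CPM, and BURP-12BaSq 40.2, 12.4 and 12.2 CPM. BURP-21BaSq had 39.6, 9.77 and 2.44 CPM. The tumors of BURP-24BaSq (97.8, 511 and 13.4 CPM) and BURP-25BaSq (640.1 and 537 CPM, with 6.86 CPM in C102-M1) had the 2 highest ratios of highest to lowest tumor, and that of BURP-25BaSq comes with C102-M1.

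By mean, the Krt7 order was BURP-17BaSq (917 ± 484 CPM), BURP-25BaSq (395 ± 339.7, or 588 over its 2 tumors without C102-M1), BURP-24BaSq (207 ± 266), BURP-19NE (162 ± 18.5), BURP-16SR (46.3 ± 18.2), BURP-18BaSq (41.6 ± 29.7), BURP-12BaSq (21.6 ± 16.1) and BURP-21BaSq (17.3 ± 19.7). None of the 7 steps was called.

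Krt19, a type I keratin of ducts and of urothelium, was the most abundant member per transcript length in 7 lines, or in 5 per coding length. In BURP-17BaSq it reached 739, 1962 and 1053 CPM, and per transcript length it was the 25th highest of 21942 protein-coding genes. BURP-18BaSq had 429.7, 787 and 1016 CPM and BURP-16SR 425, 277 and 613 CPM. These 3 lines lay above most others. BURP-25BaSq had 371, 307 and 9.44 CPM (the last C102-M1), BURP-24BaSq 120.4, 176 and 47.8 CPM, and BURP-21BaSq 153, 9.73 and 3.18 CPM. BURP-19NE had 23.0, 62.3 and 47.9 CPM and BURP-12BaSq 36.7, 15.9 and 15.3 CPM. The lowest tumors were therefore P5 and P4.2 of BURP-21BaSq and C102-M1.

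The order of the Krt19 means was BURP-17BaSq (1251 ± 635 CPM), BURP-18BaSq (744 ± 295), BURP-16SR (438 ± 168), BURP-25BaSq (229 ± 193), BURP-24BaSq (115 ± 64.1), BURP-21BaSq (55.2 ± 84.5), BURP-19NE (44.4 ± 19.9) and BURP-12BaSq (22.6 ± 12.2). None of the 7 steps was called.

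Krt20, the umbrella cell keratin, was the least abundant member per transcript length in 6 lines, or in 5 per coding length. BURP-16SR had 16, 7.5 and 17 CPM and BURP-18BaSq 1.92, 16.3 and 4.65 CPM. BURP-25BaSq had 5.74, 173 and 0.281 CPM, and the mean of 59.6 ± 98.1 CPM there rests on C102-M30. The other lines were low, with 2.07, 4.37 and 0.690 CPM in BURP-17BaSq, 1.17, 3.97 and 0.413 CPM in BURP-24BaSq, and 0.666, 1.27 and 0.518 CPM in BURP-12BaSq. BURP-21BaSq had 0.826, 0.0386 and 0.318 CPM and BURP-19NE 0.252, 0.0527 and 0 CPM, the last 3 values being 6, 1 and 0 counts. None of the 7 steps between neighbours was called, which leaves 33 of 35 steps over the 5 genes without a call. In the direction of each step, between 2.01% and 17.8% of all genes were called higher.

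BURP-19NE and BURP-16SR were next compared with the Ba/Sq lines, with each Ba/Sq line given the same weight. The p-values rest on the spread among tumors of a line, so they speak of these lines and not of subtypes. BURP-19NE had less Krt8 than the Ba/Sq lines (log2 fold change -7.10 ± 1.04, SE, adjusted p = 1.77e-05 by edgeR) and more Krt18 (2.14 ± 0.39, adjusted p = 0.000192 by edgeR), so the partners moved in opposite directions. Krt20 was lower by a log2 difference of -4.69 ± 1.62 (adjusted p = 0.0233 by edgeR). Krt7 (0.65 ± 0.85, adjusted p = 0.563 by edgeR) and Krt19 (-2.01 ± 0.94, adjusted p = 0.0887 by edgeR) were not called. Thus 1 member was called higher and 2 lower, where 12.6% of all genes were called higher and 16.2% lower. By tumor, 16 of 18 Ba/Sq tumors had more Krt8 than every BURP-19NE tumor, 14 had less Krt18 and 17 had more Krt20.

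Some of these calls depend on the choice of tumors or fit. Without C41-M3, BURP-12BaSq was at 0 in both tumors and the Krt8 difference (-6.45) was not called. A line with only 0 counts has no fixed log2 level, so that fit could not test a contrast that includes it. Without the whole BURP-12BaSq line the Krt8 difference was -8.51 (adjusted p = 4.34e-06 by edgeR). Where the 18 Ba/Sq tumors were pooled as 1 group, Krt18 was no longer called (1.08, adjusted p = 0.42 by edgeR), nor was Krt20 (-6.81, adjusted p = 0.0723 by edgeR), and the difference of Krt7 turned to -0.71 (adjusted p = 0.743 by edgeR).

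BURP-16SR had more Krt8 than the Ba/Sq lines (3.17 ± 0.45 on the log2 scale, adjusted p = 1.74e-05 by edgeR), more Krt18 (2.6 ± 0.38, adjusted p = 2.51e-05) and more Krt20 (2.21 ± 0.86, adjusted p = 0.0436). Krt19 (1.3 ± 0.72, adjusted p = 0.156 by edgeR) and Krt7 (-1.16 ± 0.99, adjusted p = 0.367 by edgeR) were not called. The 3 members called higher stand beside 15.5% of all genes, and the 0 called lower beside 11.4%. All 5 genes overlapped between BURP-16SR and the Ba/Sq tumors, with 13 of 18 Ba/Sq tumors below every BURP-16SR tumor for Krt8, 14 for Krt18 and 16 for Krt20.

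The size of the Krt8 and Krt18 differences depends on BURP-12BaSq, without which they were 1.82 (adjusted p = 0.0049 by edgeR) and 2.04 (adjusted p = 0.00111 by edgeR). With the Ba/Sq tumors pooled, neither Krt8 (1.35, adjusted p = 0.446 by edgeR), Krt18 (1.58, adjusted p = 0.24) nor Krt20 (0.20, adjusted p = 0.948) was called. The Krt20 call was also lost in 14 of the 24 fits that left out 1 tumor (2.01 to 2.99 over all 24, adjusted p between 0.00129 and 0.136 by edgeR).

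Between the 2 lines outside the Ba/Sq subtype, BURP-16SR exceeded BURP-19NE in Krt8 by 10.27 ± 1.14 (adjusted p = 4.52e-06 by edgeR), in Krt20 by 6.90 ± 1.81 (adjusted p = 0.00695) and in Krt19 by 3.30 ± 1.14 (adjusted p = 0.0309). Krt18 (0.46 ± 0.60, adjusted p = 0.59 by edgeR) and Krt7 (-1.81 ± 1.21, adjusted p = 0.262 by edgeR) were not called. Here 15.2% of all genes were called higher and 9.02% lower. The Krt7 tumors of the 2 lines did not overlap, but the share of all genes without overlap was not determined. The Krt19 call was lost without any 1 of 5 tumors, namely the 3 of BURP-19NE and C73-M10 or P5 of BURP-16SR (2.98 to 3.62 over all 24 fits that left out 1 tumor). In a fit of these 6 tumors alone, Krt7 was called lower in BURP-16SR (-1.71, adjusted p = 0.00689 by edgeR).

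**Figure D3:**
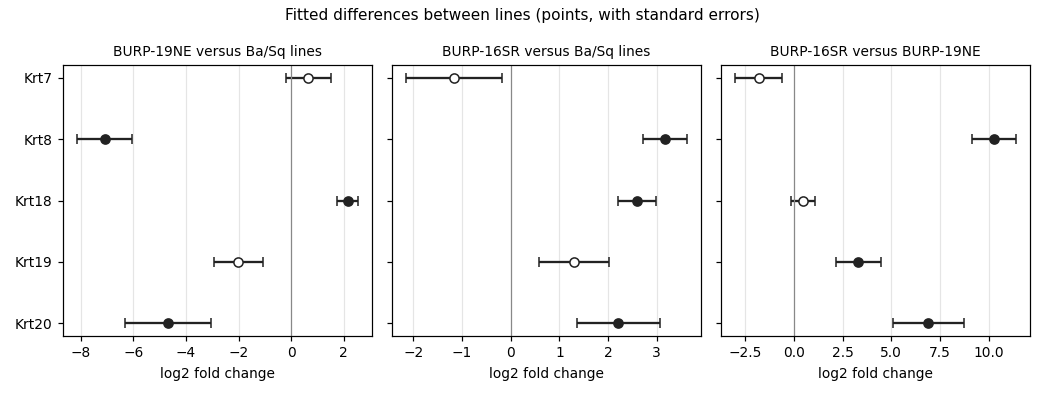
Log2 fold change ± SE of each member in 3 comparisons, BURP-19NE against the Ba/Sq lines, BURP-16SR against the Ba/Sq lines, and BURP-16SR against BURP-19NE. Filled points are called. In BURP-19NE Krt8 is at -7.10 and Krt18 at 2.14, whereas both are above 0 in BURP-16SR (3.17 and 2.6).

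Each Ba/Sq line was then set against the other 5. Of 30 combinations of gene and line, 11 were called. BURP-12BaSq had less Krt8 (-8.48 ± 1.04, adjusted p = 3.21e-05 by edgeR), Krt18 (-3.72 ± 0.63, adjusted p = 0.000458) and Krt19 (-3.57 ± 1.06, adjusted p = 0.0216), where 5.91% of all genes were called lower. BURP-17BaSq had more Krt7 (3.78 ± 0.75, adjusted p = 0.00287 by edgeR), Krt8 (3.50 ± 0.47, adjusted p = 0.000136) and Krt19 (3.37 ± 0.67, adjusted p = 0.00293), beside 5.04% of all genes called higher. BURP-18BaSq had more of the type I members Krt18 (3.53 ± 0.39, adjusted p = 2.48e-06 by edgeR) and Krt19 (2.47 ± 0.69, adjusted p = 0.0109), beside 10.2% of all genes. In that line neither type II member was called, with Krt7 at -1.57 ± 1.03 and Krt8 at -0.98 ± 0.65, but without BURP-12BaSq, which had almost no Krt8, Krt8 was called lower there (-2.78, adjusted p = 0.00506 by edgeR).

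BURP-21BaSq had more Krt8 (2.73 ± 0.49, adjusted p = 0.00451 by edgeR), beside 2.06% of all genes called higher. BURP-25BaSq had more Krt8 (3.70 ± 0.48, adjusted p = 0.000218 by edgeR) and Krt20 (5.40 ± 0.84, adjusted p = 0.0014), beside 2.37% of all genes. None of the 5 was called in BURP-24BaSq, where 5.41% of all genes were called higher and 2.45% lower, but Krt8 was called lower there without BURP-12BaSq (-2.24, adjusted p = 0.0254 by edgeR). The Krt20 call of BURP-25BaSq rests on C102-M30, without which the difference was 0.94 (adjusted p = 0.655 by edgeR). Without C102-M1, BURP-25BaSq also had more Krt7 (3.0, adjusted p = 0.00956 by edgeR) and Krt18 (1.82, adjusted p = 0.00312). In that fit 17 of the 30 combinations were called, but the share of all genes called was not determined, so the rise may not be particular to these genes. The Krt8 call of BURP-21BaSq was lost without BURP-12BaSq (1.08, adjusted p = 0.208 by edgeR) and with the label form as covariate (3.0, adjusted p = 0.073). All tumors of BURP-21BaSq share 1 label form, so within that line the form cannot be told apart from the line itself. Krt19 in BURP-12BaSq was no longer called without any 1 of its own 3 tumors or without BURP-17BaSq (-3.02, adjusted p = 0.0532 by edgeR), and Krt19 in BURP-18BaSq without its tumor P4 (2.18, adjusted p = 0.0528) or without BURP-12BaSq (1.85, adjusted p = 0.083).

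Among all keratins, the share of the simple keratins separated the Ba/Sq tumors from the other 2 lines. Levels were compared between genes as CPM per kilobase of the principal transcript. In the 18 Ba/Sq tumors the 5 genes made up 0.235% to 11.7% of the summed keratin level (mean 4.50% ± 4.56, SD). In BURP-16SR they made up 94.2% to 97.9% (96.4% ± 2.0, n = 3), and in BURP-19NE 80.5% to 92.1% (86.9% ± 5.87, n = 3). The groups did not overlap. The sum of the simple keratins itself was not distinct, at 15.1 to 1536 CPM per kilobase in the Ba/Sq tumors, 317 to 712 in BURP-16SR and 154 to 218 in BURP-19NE, whereas the sum over all keratins was 5289 to 15357, 326 to 757 and 175 to 237.

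**Figure D4:**
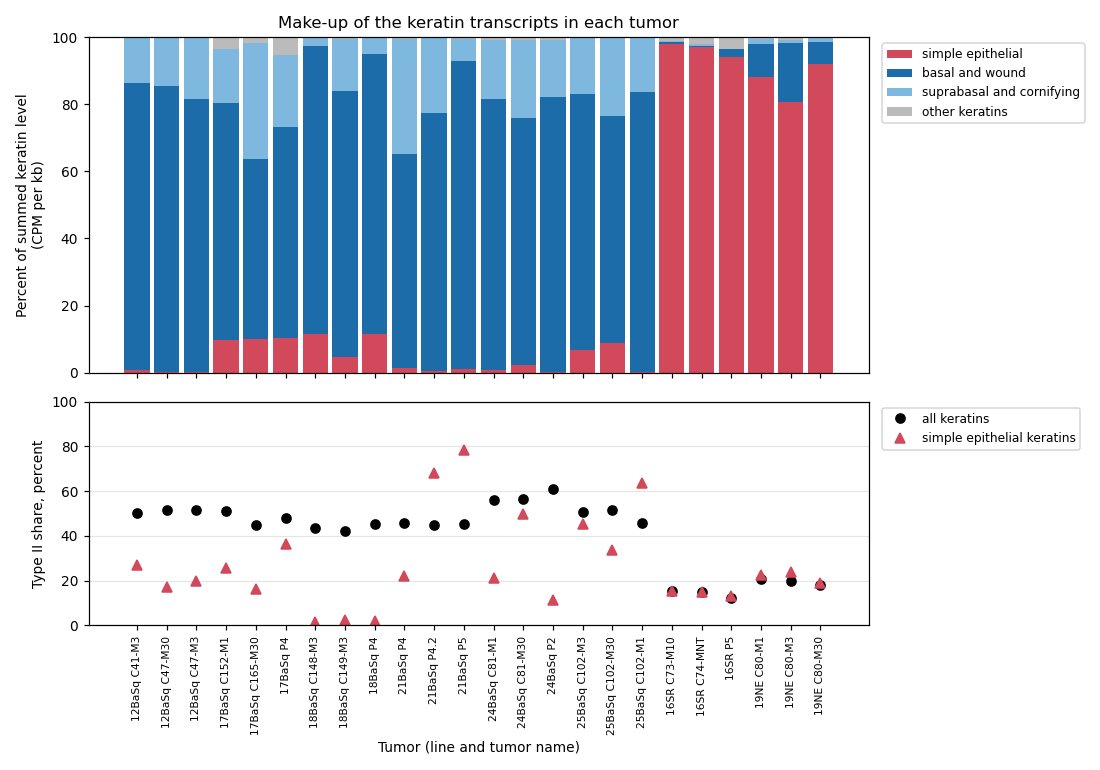
Make-up of the keratin RNA by tumor, from CPM per kilobase of transcript. Stacked bars in the upper panel give the percent of the summed keratin level held by simple, basal and wound, suprabasal and cornifying, and other keratins. The lower panel gives the type II share of all keratins (black circles) and of the simple keratins (red triangles). Simple keratins take 94.2% to 97.9% in BURP-16SR and 80.5% to 92.1% in BURP-19NE, against at most 11.7% in the Ba/Sq tumors.

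The leading keratins differed accordingly. In the Ba/Sq tumors they were Krt14 (2198 ± 622 CPM per kilobase, n = 18), Krt5 (1875 ± 419) and Krt6a (1783 ± 1132), the basal pair and a keratin of wounded epithelium. In BURP-16SR all 5 simple keratins came first by mean, with Krt19 at 278 ± 107 CPM per kilobase, Krt18 at 159 ± 66.6, Krt8 at 62.6 ± 22.5, Krt7 at 11.3 ± 4.46 and Krt20 at 7.0 ± 2.71. They were followed by Krt27 (6.87 ± 4.62), Krt15 (6.63 ± 9.36) and Krt33b (3.08 ± 4.30), keratins of hair and of its stem cell region. By tumor the lower places overlapped, with Krt27 reaching 12.2 and Krt15 17.4, against at most 16.4 for Krt7 and 8.81 for Krt20. In BURP-19NE the order was Krt18 (116 ± 26.6 CPM per kilobase), Krt7 (39.6 ± 4.53), Krt19 (28.2 ± 12.6) and Krt15 (23.9 ± 13.5), and the next ones, Krt10 (0.912 ± 0.168) and Krt13 (0.846 ± 0.142), were below 1.

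Because a type I chain needs a type II chain, the balance of the 2 types was set out by tumor. Type II genes gave 42.2% to 61.0% of the keratin level in the Ba/Sq tumors (mean 49.3%), 12.3% to 15.5% in BURP-16SR (14.2%) and 17.9% to 20.5% in BURP-19NE (19.5%). The other type II keratins amounted to 0.661 to 1.2 CPM per kilobase in BURP-16SR and 1.10 to 1.42 in BURP-19NE, against 2356 to 8568 in the Ba/Sq tumors, so Krt8 and Krt7 were nearly the only type II RNA of the former 2 lines. Of the simple keratins, type II genes held 12.9% to 15.6% in BURP-16SR and 18.9% to 24% in BURP-19NE, and from 1.48% (BURP-18BaSq) to 78.5% (BURP-21BaSq) in single Ba/Sq tumors. These shares depend on the length used for Krt7, whose principal transcript has 4094 bases of which 1371 code for protein. With coding length, chosen after the data were seen, the type II means were 52.1%, 17.6% and 37.6%, so that of BURP-19NE moved most and both lines stayed below the Ba/Sq mean in this share of all keratins. Among the simple keratins alone, the type II mean went from 21.8% to 41.5% in BURP-19NE, from 30.1% to 40.8% in the Ba/Sq tumors and from 14.5% to 17.9% in BURP-16SR, so with coding length BURP-19NE was no longer below the Ba/Sq mean. RNA shares are not protein shares.

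Most of the other keratins tested were called lower in both lines. Beside this and the list counts below, 12.6% of all genes were called higher and 16.2% lower in BURP-19NE. In BURP-16SR these shares were 15.5% and 11.4%. Of 30 of the 49 that passed the filter on low counts, 23 were called lower and 0 higher in BURP-19NE, with a median log2 fold change of -8.39 (-6.52 with the 13 genes at 0 in all its tumors set to the bound that 3 counts allow), against -0.08 over all genes. In BURP-16SR 23 were called lower and 3 higher (Krt26, Krt27 and Krt33b), with a median of -6.47 (-5.47 with 7 genes at their bound) against -0.01 over all genes. Krt5 was at 4120 ± 920 CPM in the Ba/Sq tumors (n = 18), 0.113 ± 0.196 in BURP-16SR and 0.0140 ± 0.0243 in BURP-19NE. The 9 tested suprabasal and cornifying keratins were all called lower in both lines. Of the 7 basal and wound keratins 7 were called lower in BURP-16SR and 6 in BURP-19NE, the exception being Krt15 (-2.46 ± 1.0, adjusted p = 0.0507 by edgeR). These counts are of genes that passed the filter largely through their level in the Ba/Sq tumors.

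Other intermediate filament genes did not share this direction. Of the 10 tested, 2 were called higher and 2 lower in BURP-19NE (median -0.13), and 4 higher and 1 lower in BURP-16SR (median 0.22). Vim, the mesenchymal filament protein vimentin, was 1490 ± 68.0 CPM in BURP-16SR, 661 ± 22.5 in BURP-19NE and 118 ± 126 in the Ba/Sq tumors, called higher in both (3.91 ± 0.44 and 2.74 ± 0.46). Nes, Des and Synm were also called higher in BURP-16SR, Nes by 3.28 ± 0.23.

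Genes that anchor or modify keratin filaments were tested as a list of 14. In each line 9 were called lower and 1 higher, with medians of -4.13 (BURP-19NE) and -4.36 (BURP-16SR). Dsp, the desmosomal plaque protein desmoplakin that holds keratins at the junction, was 3286 ± 1400 CPM in the Ba/Sq tumors, 0.388 ± 0.544 in BURP-16SR and 1.81 ± 0.764 in BURP-19NE. Plec, which links filaments to hemidesmosomes and to other filament types, was at 1953 ± 1163, 1573 ± 605 and 2392 ± 216 CPM in the same order and was not called. Pkp2, a plakophilin found in simple epithelia and heart, was the member called higher in both lines (1.5 ± 0.35 in BURP-19NE and 1.13 ± 0.36 in BURP-16SR). Dsp was called lower in both lines, where Krt18 was called higher.

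Of 14 epithelial transcription factors, 11 were called lower and 1 higher in BURP-19NE (median -7.07, or -5.95 with bounds), and 10 lower and 0 higher in BURP-16SR (median -7.03). In each line 2 of the 14 were at 0 in all tumors, so they passed the filter through other lines. Grhl2, a Grainyhead-like activator of epithelial junction genes, was 96.4 ± 27.6 CPM in the Ba/Sq tumors, 0.0699 ± 0.121 in BURP-16SR and 0.127 ± 0.0827 in BURP-19NE. Trp63, the regulator of stratified epithelia, was 389 ± 137, 0.134 ± 0.120 and 0.371 ± 0.197 CPM. Among the members not called lower in at least one of the lines were Klf5 (128 ± 67.4 CPM in BURP-16SR and 323 ± 32.5 in BURP-19NE), Foxa1 (28.5 ± 9.34 and 52.9 ± 14.9) and Gata3 (47 ± 16.6 and 116 ± 5.09), the last called higher in BURP-19NE (1.48 ± 0.31). Klf5 was called lower in BURP-16SR (-1.58 ± 0.25) and Foxa1 was called in neither. Klf4 (138 ± 82.9 and 14 ± 2.42 CPM) and Pparg (4.89 ± 0.722 and 0.599 ± 0.193 CPM) were called lower in BURP-19NE and not called in BURP-16SR (-0.53 and 0.25). By protein staining, the paper reported high TP63 and FOXA1 and uneven GATA3 in BURP-19NE. For BURP-16SR it reported TP63 in some cells, high FOXA1 and no detected GATA3. The TP63 protein of both lines and the GATA3 protein of BURP-16SR thus differ from the RNA levels here, and the reason was not tested.

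Markers of epithelial cells other than keratins were low in BURP-16SR and nearly missing from BURP-19NE. All 8 were called lower in each, and their summed level was 541 to 2112 CPM in the Ba/Sq tumors, 28.7 to 61.6 in BURP-16SR and 1.09 to 2.59 in BURP-19NE. Of the 8, 2 were at 0 in all BURP-19NE tumors, so they passed the filter through other lines and could only be called lower there. Epcam was at 0 in every BURP-19NE tumor and at 0.368 ± 0.196 CPM in BURP-16SR, against 108 ± 55.0 in the Ba/Sq tumors. The simple keratins were therefore measured at 154 CPM per kilobase or more in tumors whose other epithelial markers were low or absent. The uroplakins, which form the plaques of the bladder surface, were scarce in every subtype, with Upk3a at 0 in 19 of 24 tumors and Upk2 at 3 counts or fewer in 18. Of 7 umbrella cell genes, which were the uroplakins together with Psca and Snx31, 4 passed the filter and 3 of these were called lower in each line. Psca, which is not a uroplakin, was 587 ± 648 CPM in the Ba/Sq tumors, 0.0233 ± 0.0403 in BURP-16SR and 0.0176 ± 0.0304 in BURP-19NE. The 3 genes called lower passed the filter through their level in the Ba/Sq tumors.

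Markers of other cell types moved with the comparison as well. Of 7 fibroblast genes, 6 were called higher in BURP-16SR and 0 in BURP-19NE, and their summed level was 582 to 20003 CPM in BURP-16SR, 1170 to 1902 in BURP-19NE and 207 to 9787 in the Ba/Sq tumors. In BURP-16SR 2 of 6 leukocyte genes, 2 of 5 endothelial genes and 3 of 3 tested adipocyte genes (of 4) were called higher, and 4 of 5 skeletal muscle genes. The tumors were uneven in these genes, as the summed skeletal muscle level in BURP-16SR was 0.254, 1.05 and 100.1 CPM, the summed leukocyte level ran from 68.5 to 423 CPM, and the B cell gene Cd79a was at 24.6 ± 39.8 CPM. In BURP-19NE all 5 skeletal muscle genes were called higher, with a summed level of 519.8 CPM in 1 tumor and 2.79 and 4.81 in the others, and no fibroblast, leukocyte, endothelial or adipocyte gene was called. Msln, a gene of mesothelium and of some carcinomas, was called higher in both lines (406 ± 106 CPM in BURP-19NE, 263 ± 82.4 in BURP-16SR and 21.4 ± 33.2 in the Ba/Sq tumors). The mesothelial regulator Wt1 had at most 11 counts in any tumor and Upk3b, a uroplakin also made by mesothelium, at most 440 counts (19.6 CPM). Of the 6 mesothelial genes 2 were tested, and the other, Muc16, was called lower in BURP-19NE. Of 6 mammary luminal genes 2 were tested, Csn3 was called higher in both lines (18.7 ± 20.1 CPM in BURP-16SR), Prlr was called lower in BURP-19NE (-4.66 ± 1.21, adjusted p = 0.00374 by edgeR) and not called in BURP-16SR (0.55), and Csn2 was at 0 in all 24 tumors. The part of these cells in the keratin levels was not tested.

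Tumors of 1 line could differ widely, and not equally for each gene. The SD within lines, on the log2 scale, was 1.91 for Krt7, 1.90 for Krt20 and 1.59 for Krt19, more than for 99.0%, 99.0% and 97.3% of the genes tested. That of Krt20 takes in tumors with few counts (6, 1 and 0 in BURP-19NE, 9, 1 and 9 in BURP-21BaSq) and C102-M30 at 173 CPM. For Krt8 it was 0.93 and for Krt18 0.85 (above 82.7% and 79.0% of genes), and the median gene had 0.47. Without C102-M1, left out after the data were seen, the SDs were 1.45 for Krt7, 1.43 for Krt20, 1.23 for Krt19, 0.90 for Krt8 and 0.60 for Krt18, above 96.8%, 96.6%, 93.8%, 84.0% and 64.4% of genes, and the median gene had 0.45. Differences between lines made up 96.1% of the variance of Krt8, 88.2% of Krt18, 73.4% of Krt19, 62.1% of Krt20 and 59.5% of Krt7. The highest and lowest tumors of a line differed 93.4-fold for Krt7 in BURP-25BaSq (1.19-fold without C102-M1), 38.1-fold in BURP-24BaSq and 1.25-fold in BURP-19NE. For Krt19 the ratio was 48.0 in BURP-21BaSq and 39.2 in BURP-25BaSq (1.21 without C102-M1), and for Krt20 it was 615 in BURP-25BaSq (30.1 without C102-M1).

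Krt7 and Krt19, which varied most within lines among the abundant members, varied together. The Pearson r of their deviations from the line means was 0.87 over the 24 tumors and 0.76 over the 23 without C102-M1. Across all tumors r was 0.65, and over the 18 Ba/Sq tumors 0.77 (Spearman's rho 0.76). For Krt8 and Krt18 the r within lines was 0.65 (0.62 without C102-M1), over all tumors 0.27 and over the Ba/Sq tumors 0.52 (rho 0.40). Krt18 and Krt19 had 0.62 within lines, which fell to 0.28 without C102-M1, 0.64 over all tumors and 0.77 over the Ba/Sq tumors. Tumors of a line share a donor and each pair of values shares a library, so these are descriptions and no p is given.

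**Figure D5:**
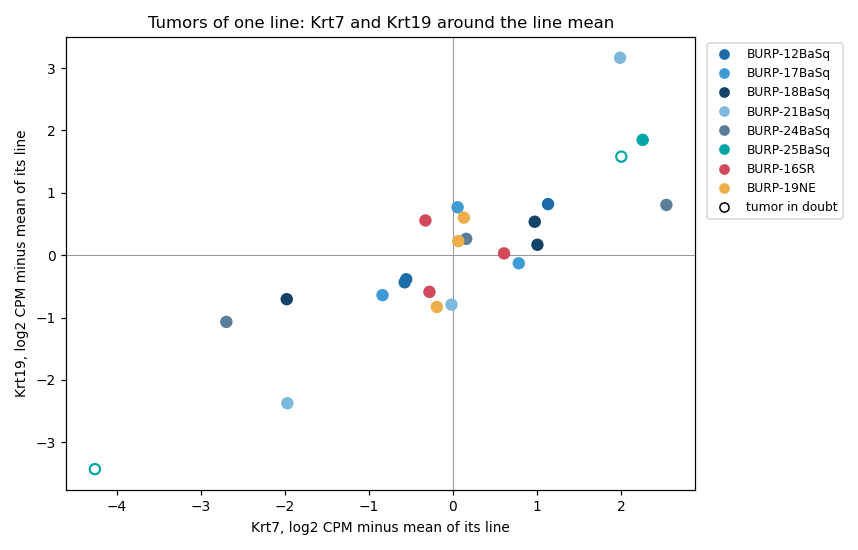
Deviation of Krt7 and of Krt19 in each tumor from the mean of its line, both as log2 CPM, with the 2 doubtful BURP-25BaSq tumors open. The points follow a rising band (r = 0.87, 24 tumors), and C102-M1 lies at its lower end.

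The genes whose pattern over the 24 tumors was most like each member, by Pearson r of log2 CPM, were the following. For Krt8 they were its processed copy Krt8-ps (0.94), Unc13d (0.88), Oacyl (0.87), Pdlim4 (0.83) and Tbkbp1 (0.83). For Krt18 they were Areg (0.94) and Ereg (0.90), both ligands of the epidermal growth factor receptor, with Hmga2 (0.91), Cdk14 (0.91) and Creld1 (0.89). For Krt7 the nearest was another keratin, Krt87 (0.88), then Copb1 (0.81), Capn5 (0.79), Pter (0.78) and Wdr31 (0.77). Krt19 was nearest to 9130008F23Rik (0.91), Thap12 (0.86), 2200002D01Rik (0.86), Golgb1 (0.84) and Ngrn (0.82), and Krt20 to 4930452B06Rik (0.83), Mannr (0.81), Acsl3 (0.81), Kcnk4 (0.80) and Utp14b (0.80). No member was among the 5 genes most like another member.

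Male and female donors were compared over the 6 Ba/Sq line means, 3 lines against 3, where an exact permutation test cannot give a two-sided p below 0.1. None of the 5 genes reached it. The female minus male difference was 2.92 for Krt8 (log2, exact permutation p = 0.5), -2.19 for Krt19 (exact permutation p = 0.3), -0.65 for Krt7, -0.57 for Krt18 and -0.41 for Krt20 (exact permutation p = 0.8 for each). The female lines ranged from 2.97 to 6.61 log2 CPM of Krt8 and the male lines from -2.58 to 6.65, so they overlapped. Without C102-M1 the differences of Krt7 and Krt20 turned positive (0.063 and 0.29).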

How the data were processed

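Total RNA of 24 tumors was depleted of ribosomal RNA, sequenced with a strand-marking kit, and aligned with STAR 2.6.0a to GRCm38 with GENCODE M16. The authors deposited RSEM 1.3.1 estimated counts per gene, not normalized. The submitters' processing notes also name CASAVA 1.8.2. Of the values 12.5% were not whole, and all were rounded. Of 53465 identifiers 53360 matched the annotation. Totals of 9295708 to 25370320 counts set the precision, and limits from counts cover counting error only.

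Tests used edgeR 4.0.16 in R 4.3.3, with TMM scaling, filterByExpr by line, quasi-likelihood fits of 1 mean per line and Benjamini-Hochberg adjustment over 21383 genes. Contrasts gave the 6 Ba/Sq lines equal weight. A call needed an adjusted p under 0.05 and a log2 change over 1. Log2 CPM used a prior count of 2. Summaries used Python 3.11.15 and pandas 2.3.3. Scripts were tested on simulated data. P-values measure the spread among the tumors of a line, which share a donor.

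The genes named were the 5 members, list genes, the 3 highest other keratins of each subtype and the 5 genes most like each member. The members and lists were chosen with earlier results of these data known. Alternatives were DESeq2 1.42.0 and its size factors, limma-voom (limma 3.58.1), 2 other filters, a covariate for the label form, tumors left out and a prior count of 0.5. Leaving out a line and coding length were added after the data were seen. Promoter windows came from RefSeq, and copies were searched with BLAST.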

Additional observations from a re-analysis of the deposited data

How the results depend on the processing

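No paired analysis was possible because nothing in the labels ties the numbers that recur among lines to a shared animal, batch or day. Of 2083 values recomputed under alternatives for 72 results, 1966 kept direction and call. For members between subtypes, the exceptions with a single group of 18 Ba/Sq tumors, or of the 6 tumors compared only, were Krt7 (-0.71), Krt18 (1.08) and Krt20 (-6.81) in BURP-19NE against Ba/Sq, Krt8 (1.35), Krt18 (1.58) and Krt20 (0.20) in BURP-16SR against Ba/Sq, and Krt7 (-1.71, called) between the 2 lines. Krt19 in BURP-19NE became called with DESeq2 (-2.02), without C102-M1 and C102-M30 (-2.09), without BURP-12BaSq (-2.60) and without BURP-21BaSq (-2.34), and in BURP-16SR without BURP-17BaSq (1.86). Krt20 in BURP-19NE lost its call with limma-voom (-4.06), and in BURP-16SR with DESeq2 (2.23) and without BURP-12BaSq (1.91), BURP-17BaSq (2.16), BURP-21BaSq (1.67) or BURP-24BaSq (2.16). Lower depth in C102-M30 limits every low value there.

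Over the 24 fits that each left out 1 tumor, the ranges were -10.96 to -6.45 for Krt8, -2.33 to -1.49 for Krt19 and -6.53 to -3.93 for Krt20 in BURP-19NE against Ba/Sq, 0.97 to 1.81 for Krt19 and 2.01 to 2.99 for Krt20 in BURP-16SR against Ba/Sq, and 2.98 to 3.62 for Krt19 between the 2 lines. Krt19 became called in BURP-19NE without C102-M1 or P5 of BURP-21BaSq, and in BURP-16SR without P4 of BURP-21BaSq, and Krt20 in BURP-19NE lost its call without C80-M3 or C80-M30. For single Ba/Sq lines, ranges that crossed 0 were -1.11 to 0.46 for Krt20 in BURP-17BaSq, and -0.69 to 1.76 for Krt7, -1.58 to 0.31 for Krt8 and -2.01 to 0.11 for Krt20 in BURP-24BaSq.

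With at least 10 counts in every tumor, Krt8 and Krt20 gave no value, so the counts cover the other 3 members only, all 3 called among the 8 lines and all 3 among the Ba/Sq lines, with 6 calls over combinations of gene and line. The 1 neighbouring step called there is of one of these 3 members and is neither of the Krt8 steps called otherwise. The label form as covariate left 1 of 35 steps. Combinations called ranged from 10 to 17 over fits without 1 tumor, for which the share of all genes called was not determined. The sex differences turned to 0.063 (Krt7) and 0.29 (Krt20) without C102-M1. Differences of 1 Ba/Sq line from the others that were not called turned sign for Krt20 in BURP-17BaSq (0.47 with limma-voom, 0.30 without both BURP-25BaSq tumors in doubt, 0.75 without BURP-25BaSq), Krt8 in BURP-24BaSq (0.24, 0.11 and 0.26 without BURP-17BaSq, BURP-21BaSq and BURP-25BaSq), Krt18 in BURP-24BaSq (0.10 without BURP-18BaSq), Krt20 in BURP-24BaSq (0.27 without BURP-25BaSq) and Krt19 in BURP-25BaSq (-0.39 with limma-voom, -0.21 without BURP-12BaSq). Where the text gives no other reason, the cause was not tested. A prior count of 0.5 kept 22 of the 25 genes named for likeness.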
